A study of Mus musculus with 4 samples.

Results

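Alveolar macrophages (AM) of WT and *Trem-2*-/- mice were compared for the nuclear genes of the mitochondrial respiratory chain and of ATP synthase. Members were chosen by a naming rule that uses no values, though earlier results of these data were known. The rule took probe sets whose platform annotation gives 1 symbol beginning with Nduf (complex I), Uqcr (complex III) or Atp5 (complex V, ATP synthase). It also took *Sdha*, *Sdhb*, *Sdhc* and *Sdhd* (complex II) and *Cycs* (cytochrome c). This gave 73 of the 19946 genes with a probe set of their own, namely 43 of complex I, 4 of complex II, 8 of complex III, 17 of complex V and *Cycs*. They were covered by 96 probe sets, and for the 14 members with several the brightest was used. Subunits of complex IV and the subunits encoded by mitochondrial DNA lie outside this choice and are described after it.

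RNA was taken from AM lavaged from the lungs of untreated mice and hybridized to 4 Affymetrix mouse gene arrays, 2 per genotype, to compare resting gene expression with and without TREM-2. WT mice were C57/Blk6. *Trem-2*-/- mice lack TREM-2, a receptor of the immunoglobulin superfamily on myeloid cells, and had been backcrossed 10 times to C57/Blk6. Mice of both genotypes were 8 to 10 weeks old, and each array held RNA of pooled mice, with the number of mice per pool not given in the sources used here. The authors deposited log2 values normalized by the robust multi-array average (RMA), so a difference of 1 is a change of 2-fold in signal. A probe set's signal depends on its probes, and levels are therefore compared between arrays and not between genes.

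Complexes I and II take electrons from NADH and succinate and pass them to ubiquinone, complex III hands them to cytochrome c, and complex IV delivers them to oxygen. Complexes I, III and IV pump protons across the inner mitochondrial membrane, and the returning protons turn the ring of c subunits of ATP synthase, which drives ATP formation in its F1 head. AM live in an oxygen-rich airspace, clear surfactant lipid and inhaled particles, and are known to rely strongly on oxidative metabolism.

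*Trem2*, the targeted gene, had log2 signals of 9.58 and 9.74 in WT AM and of 7.64 and 7.45 in *Trem-2*-/- AM, a log2 fold change of −2.11 (limma adjusted p = 0.0009). The arrays correlated at r = 0.998 within each genotype and at r = 0.996 between them. Of 12 AM markers measured, 1 passed the test (*Car4*, higher), while 5 were lower on both *Trem-2*-/- arrays and 4 higher, with values from −0.35 (*Krt79*) and −0.21 (*Siglecf*) to 0.90 (*Car4*). Over all genes 25.4% were lower on both *Trem-2*-/- arrays and 17.4% higher. With an intensity trend and robust variance in limma *Krt79* and *Siglecf* also passed, as lower, and *Marco* and *Chil3*, as higher. The mean signal of this list, with *Car4* in it, was 10.82 on either WT array and 10.89 and 10.85 on the *Trem-2*-/- arrays. For interstitial or monocyte-derived macrophages 8 of 12 markers passed as higher in *Trem-2*-/- AM, where 0.431% of all genes did. The mean signal of these 12 was 7.40 and 7.43 on the WT arrays against 8.20 and 8.18. *Lyve1*, *Folr2*, *Maf* and *Cd163* did not pass, with values of −0.09, −0.07, −0.01 and 0.10. Of 9 markers of lung epithelium 1 passed, as higher (*Scgb1a1*, 0.91), but the list ran both ways, with 5 higher on both *Trem-2*-/- arrays, up to 0.95 (*Krt18*), and 4 lower, down to −0.45 (*Cdh1*). Of 2 erythroid markers 1 passed as higher (*Alas2*), and none of 8 neutrophil, 5 T and NK cell or 3 B cell markers passed. The part of these differences in the values below was not tested, and in such bulk samples fewer cells of a type and less RNA per cell cannot be told apart.

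No respiratory chain gene passed the test between genotypes, although the values of most leaned towards a lower signal in *Trem-2*-/- AM. Of the 73 members 0 were called higher and 0 lower by limma at an adjusted p below 0.05, where 0.431% of all genes were called higher and 0.135% lower (0.567% in either direction). At an unadjusted p below 0.05 there were 8 members lower and 0 higher, against 6.9% and 4.64% of all genes. The log2 fold change was below 0 for 56 members (76.7%), whereas it was below 0 for 57.3% of all genes and for 50.2% of the genes that were, like most members, above the upper quartile of every array. Its median over the members was −0.072, a difference of −4.90% in signal, beside −0.021 over all genes. The members share 4 arrays and are not replicates of each other, so no p-value belongs to this median.

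The probe sets of the members mostly gave signals in the upper part of the arrays' range, which describes the probe sets and not the abundance of the transcripts. The signal exceeded the median of the array on every array for 71 members, all but *Ndufa4l2* and *Ndufaf5*, and the upper quartile for 53. Arrays of 1 genotype differed by a median of 0.061 (WT) and 0.063 (*Trem-2*-/-) per member, and the genotype means by a median of 0.081 regardless of sign. Over all genes the genotype means differed by a median of 0.083 regardless of sign. The genotype difference was above the larger of the differences within a genotype for 23 members. The share of all genes that did so was not counted, so this number describes the members alone. Both *Trem-2*-/- arrays lay below both WT arrays for 37 members (50.7%) and above them for 5 (6.85%), while the arrays overlapped for 31. Over all genes these shares were 25.4% lower and 17.4% higher, and over genes with a mean log2 signal of at least 6 they were 25.7% and 21.9%. After each array was centred on its median, 27 members were lower on both *Trem-2*-/- arrays and 6 higher. The shares of all genes after centring were not counted. With 2 arrays against 2, the smallest two-sided p that an exact permutation test allows is 0.333.

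**Figure D1:**
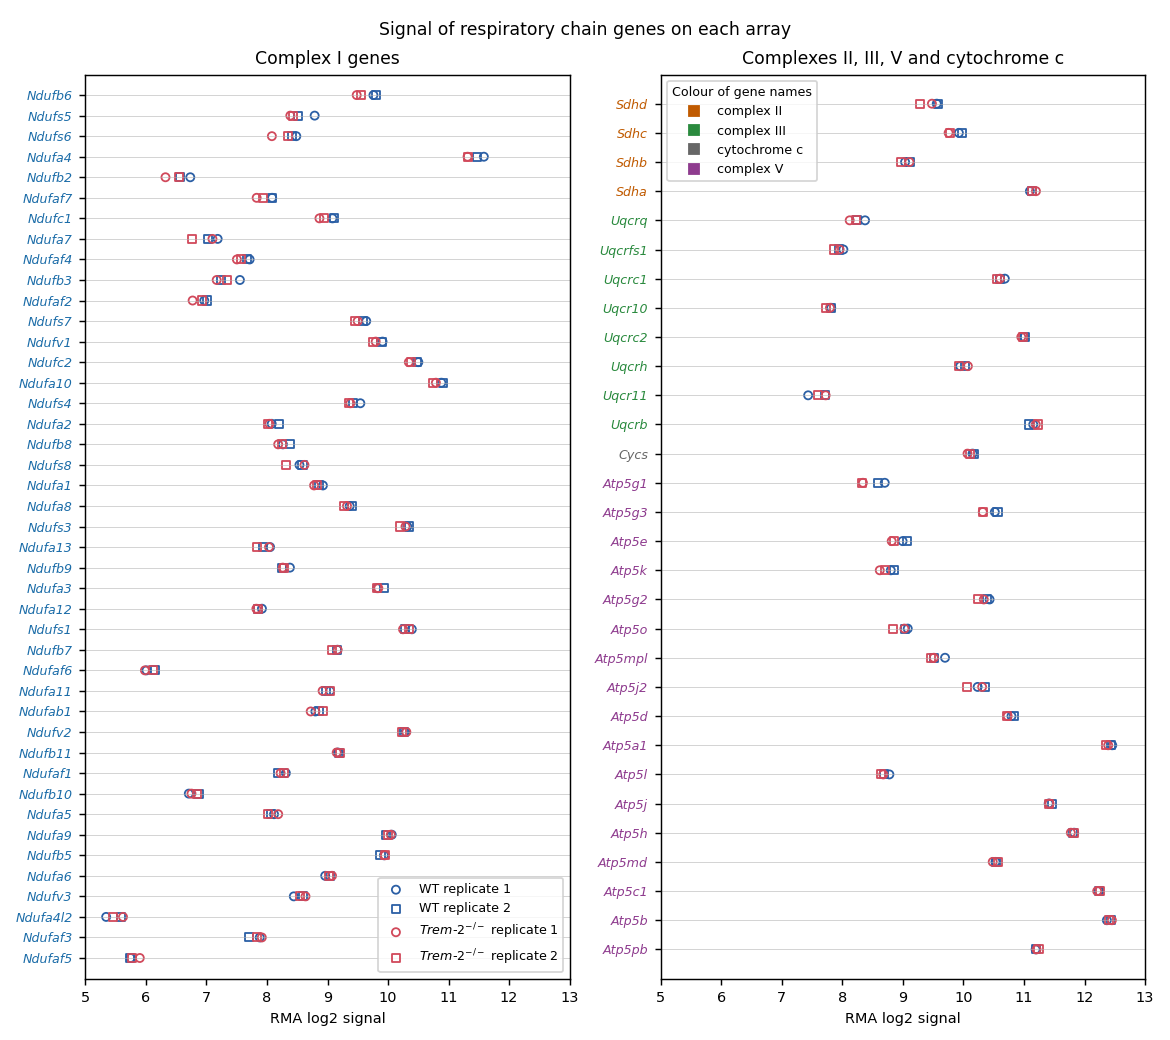
RMA log2 signal (horizontal axis) of the 73 respiratory chain genes on each of 4 arrays, with WT in blue, Trem-2-/- in red, and circles and squares for replicates 1 and 2; the left panel holds complex I and the right panel complexes II, III and V and cytochrome c. Symbols of 1 gene lie close together for most members, and in rows such as Atp5g1 and Ndufb6 both red symbols lie to the left of both blue ones.

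The intervals of single genes, not adjusted over genes, limit the differences in array signal that could have been missed. Per member the standard error of the difference was 0.071 to 0.13 (log2), and the 95% interval lay within 0.25 of 0 for 29 members and within 0.5 for 72. The remaining member, *Ndufs5*, had the interval that reached farthest, to −0.50, which corresponds to a 1.41-fold difference. The members' log2 fold changes, −0.31 to 0.093, were thus smaller in size than the smallest change called over all genes, 0.54. For none of the 73 did the interval include a 2-fold difference in signal. Since RMA can compress small differences, these intervals do not bound the change in transcript amount.

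**Figure D2:**
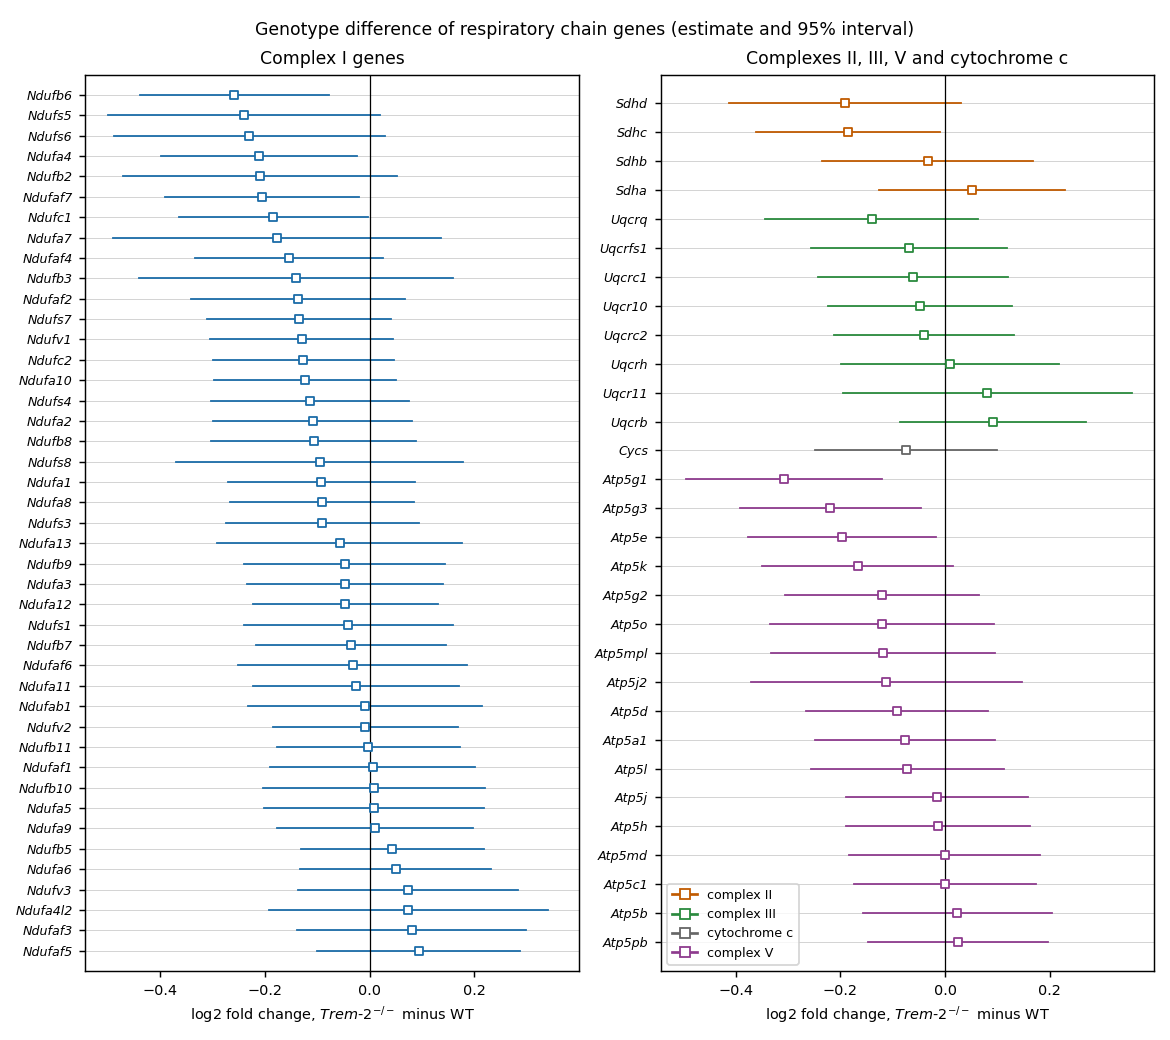
Log2 fold change (Trem-2-/- minus WT, horizontal axis) of each respiratory chain gene with its 95% interval from limma, ordered within each complex from the most negative. Intervals of 8 genes lie wholly below 0 before adjustment, none lies wholly above 0, and all 73 lie within 1 of 0.

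Complex I genes had a median log2 fold change of −0.090, with 33 of 43 below 0. The signal was lower on both *Trem-2*-/- arrays for 20 of them (46.5%) and higher on both for 2 (4.65%), beside 25.4% and 17.4% of all genes. Those 2 were an assembly factor (*Ndufaf5*) and an accessory subunit (*Ndufb5*). The core subunits encoded in the nucleus include those with the flavin and iron-sulfur centres along which electrons run. All 6 nuclear core genes measured here had values below 0, with a median of −0.093. *ND3*, a core subunit encoded by mitochondrial DNA and described below, had a value above 0.

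*Ndufv1*, the flavoprotein that binds NADH, had log2 signals of 9.91 and 9.89 in WT AM and of 9.80 and 9.74 in *Trem-2*-/- AM (log2 fold change −0.13, limma adjusted p = 0.556). *Ndufs7*, which holds the iron-sulfur centre next to ubiquinone, had 9.64 and 9.59 in WT AM against 9.50 and 9.46 (log2 fold change −0.14, limma adjusted p = 0.541). *Ndufs3*, a subunit of the ubiquinone module, had 10.32 and 10.34 against 10.29 and 10.19, a log2 fold change of −0.09. For these 3 of the 6 nuclear core genes (50%) both *Trem-2*-/- arrays lay below both WT arrays, beside 25.4% of all genes. *Ndufs8*, an iron-sulfur subunit of the peripheral arm, had 8.54 and 8.59 in WT AM, between the 8.62 and 8.31 of *Trem-2*-/- AM. *Ndufs1*, the largest iron-sulfur subunit, had 10.39 and 10.28 against 10.25 and 10.34. *Ndufv2*, an iron-sulfur subunit of the NADH module, had 10.29 and 10.27 against 10.30 and 10.24. Genotypes overlapped for these latter genes, and each of their log2 fold changes (−0.09, −0.04 and −0.0081) changed sign when 1 of the arrays was left out.

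Accessory subunits surround this core. Of the remaining complex I genes *Ndufb6*, in the distal part of the membrane arm, differed most, with log2 signals of 9.76 and 9.80 in WT AM and of 9.48 and 9.56 in *Trem-2*-/- AM. Its log2 fold change was −0.26 (standard error 0.074, 95% interval −0.44 to −0.078, limma adjusted p = 0.288). *Ndufs5* followed with 8.79 and 8.51 in WT AM against 8.39 and 8.43, a log2 fold change of −0.24. The WT arrays differed from each other by more than this, and without WT replicate 1 the value was −0.10. Similarly, *Ndufs6*, a zinc-binding subunit at the junction of NADH and ubiquinone modules, had 8.48 and 8.41 against 8.08 and 8.35, and without *Trem-2*-/- replicate 1 its log2 fold change of −0.23 moved to −0.095. *Ndufb2* had 6.73 and 6.56 in WT AM against 6.32 and 6.55, and its log2 fold change of −0.21 moved to −0.095 without *Trem-2*-/- replicate 1. The size of these 3 values was thus set largely by 1 array.

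*Ndufa4* was named as a complex I gene, although its protein was later placed in complex IV. It had log2 signals of 11.58 and 11.47 in WT AM and of 11.31 on either *Trem-2*-/- array, a log2 fold change of −0.21 (standard error 0.077, limma adjusted p = 0.386). Its paralog *Ndufa4l2*, known as a gene induced by hypoxia, had 5.34 and 5.59 against 5.62 and 5.46, and the genotypes overlapped. Ndufaf genes encode assembly factors, which help to build complex I and are not part of it. Of these 7 genes 4 had values below 0, with a median of −0.033. *Ndufaf7*, a methyltransferase that acts during assembly, had 8.09 on either WT array against 7.83 and 7.93, a log2 fold change of −0.21 (limma adjusted p = 0.395). *Ndufaf5*, at the other end of the range, had 5.75 and 5.73 against 5.90 and 5.77, a log2 fold change of 0.09. Without the assembly factors, *Ndufa4* and *Ndufa4l2*, the median over the remaining 64 members was −0.073, with 51 below 0.

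By the family names of the accessory subunits, the median was −0.047 over 13 NDUFA genes (10 below 0), −0.048 over 9 NDUFB genes (7 below 0) and −0.17 over 4 NDUFS and NDUFV genes outside the core (3 below 0). *Ndufc1* and *Ndufc2*, of the membrane arm, had log2 fold changes of −0.18 and −0.13, and the genotypes overlapped for neither. *Ndufb5*, also of the membrane arm, had 9.93 and 9.87 in WT AM against 9.95 on either *Trem-2*-/- array, a log2 fold change of 0.04. The complex I genes without a value in the text ran from −0.18 (*Ndufa7*, with overlapping arrays) to 0.08 (*Ndufaf3*), as the plot of log2 fold changes shows.

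Within complex II, the membrane anchors *Sdhc* and *Sdhd*, which form the ubiquinone site, had values lower on both *Trem-2*-/- arrays, while the succinate-oxidizing flavoprotein *Sdha* and the iron-sulfur subunit *Sdhb* did not. Over the 4 genes the median log2 fold change was −0.11. On both *Trem-2*-/- arrays 50% of them were lower and 25% higher, beside 25.4% and 17.4% of all genes. *Sdhc* had log2 signals of 9.92 and 9.98 in WT AM against 9.75 and 9.78, a log2 fold change of −0.19 (95% interval −0.36 to −0.0098, limma adjusted p = 0.410). *Sdhd* had 9.56 and 9.58 against 9.48 and 9.28, a log2 fold change of −0.19 (95% interval −0.41 to 0.030), which was −0.090 without *Trem-2*-/- replicate 2. The anchors' lower values thus differed in how far they depended on 1 array. *Sdhb* had 9.04 and 9.11 in WT AM against 9.11 and 8.97, a log2 fold change of −0.03. *Sdha* had 11.10 and 11.13 against 11.20 and 11.13, and at 0.05 it was the only complex II gene with a value above 0. The intervals of the 4 genes overlapped, and a difference between anchors and catalytic subunits was not tested.

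Complex III genes had a median log2 fold change of −0.044, with 5 of 8 below 0. Both *Trem-2*-/- arrays lay below both WT arrays for 4 of them (50%) and above for 1 (12.5%), beside 25.4% and 17.4% of all genes. *Uqcrfs1*, the Rieske iron-sulfur protein, had 8.02 and 7.94 in WT AM against 7.95 and 7.87, a log2 fold change of −0.07. The core proteins *Uqcrc1* and *Uqcrc2* differed by −0.06 and −0.04. *Uqcrq*, a small accessory subunit, had 8.37 and 8.25 against 8.12 and 8.22, and at −0.14 (limma adjusted p = 0.587) it had the lowest value of the complex. *Uqcrb*, another small subunit, ran the other way, with 11.15 and 11.09 in WT AM against 11.19 and 11.23 and a log2 fold change of 0.09 (limma adjusted p = 0.692). Its 3 probe sets ranged from 0.04 to 0.09 and each was higher on both *Trem-2*-/- arrays. *Uqcr11* had 7.43 and 7.72 in WT AM, on either side of 7.59 in *Trem-2*-/- replicate 2, and its probe sets gave −0.19 and 0.08, so that no direction can be given for it. *Uqcr10* and *Uqcrh*, the hinge protein, differed by −0.05 and 0.0096. *Cycs*, the mobile carrier between complexes III and IV, had 10.15 and 10.17 in WT AM against 10.07 and 10.11, a log2 fold change of −0.07 (limma adjusted p = 0.747). With the mean of its 3 probe sets, of which a dim one gave −0.54, the value was −0.23. The size of the *Cycs* value thus depends on the probe set, and the annotation does not tell which of them lies on the gene itself.

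Among the complexes, ATP synthase had the largest share of genes with values below 0, 14 of 17, with a median log2 fold change of −0.092. On both *Trem-2*-/- arrays 10 of its genes (58.8%) were lower and 1 (*Atp5pb*, 5.88%) higher, beside 25.4% and 17.4% of all genes. *Atp5pb* counts as higher by its brightest probe set, while its other probe set was lower on both *Trem-2*-/- arrays. Within the enzyme the lowest median belonged to the c ring, the rotor through which protons pass. *Atp5g1*, *Atp5g2* and *Atp5g3* encode the same mature c subunit with different mitochondrial targeting peptides, so their transcripts add to 1 product. *Atp5g1* had log2 signals of 8.70 and 8.59 in WT AM and of 8.34 and 8.33 in *Trem-2*-/- AM. Its log2 fold change of −0.31 (standard error 0.077, 95% interval −0.50 to −0.12, limma adjusted p = 0.226) was the lowest of all 73 members, and its other probe set gave −0.29. *Atp5g3* had 10.52 and 10.56 in WT AM against 10.32 on either *Trem-2*-/- array, a log2 fold change of −0.22 (standard error 0.071, 95% interval −0.39 to −0.046, limma adjusted p = 0.343). *Atp5g2* had 10.43 and 10.39 against 10.34 and 10.24, a log2 fold change of −0.12 (limma adjusted p = 0.608), and its 3 probe sets gave −0.13 to −0.12. For all of these genes both *Trem-2*-/- arrays lay below both WT arrays, as for 25.4% of all genes. Their median was −0.22, beside −0.072 over all members.

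The nearest members to the threshold were thus *Atp5g1* and *Ndufb6*, followed by *Atp5g3* and *Ndufa4*, and they mark where the outcome depended on the variance model. With an intensity trend and robust variance in limma these 4 genes passed as lower (adjusted p = 0.0266, 0.0239, 0.0254 and 0.0215) and 0 members as higher, where 1.45% of all genes passed as lower and 1.9% as higher. By SAM, the test named in the study's methods, 0 members passed at a false-discovery rate of 5%, against 0.872% of all genes higher and 0.0953% lower. Leaving out 1 array at a time, the log2 fold change of *Atp5g1* stayed between −0.36 and −0.25 and that of *Ndufb6* between −0.30 and −0.22, with limma adjusted p of at least 0.310 and 0.397.

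Promoters are shown for *Atp5g1*, *Ndufb6* and *Atp5g3*, the members of smallest unadjusted p in limma, and for *Atp5g2*, the other c subunit gene. The *Atp5g2* promoter was added after its value was seen. Each line is 300 bases of RefSeq assembly GRCm38.p6, from 250 before to 50 after the start of transcription, all on the minus strand and written 5′ to 3′: *Atp5g1* at chr11:96075582-96075881, *Atp5g2* at chr15:102670998-102671297, *Atp5g3* at chr2:73911277-73911576 and *Ndufb6* at chr4:40279372-40279671. Capitals mark matches to the searched strings, which are CCAATGG, a longer string that holds a CCAAT box, in *Atp5g1* and an NRF1 string in *Atp5g2*. The windows of *Atp5g3* and *Ndufb6* hold none of the searched strings. The shorter CCAAT was not searched by itself, and it also stands in lower case in *Atp5g1* and *Atp5g3*.
Atp5g1: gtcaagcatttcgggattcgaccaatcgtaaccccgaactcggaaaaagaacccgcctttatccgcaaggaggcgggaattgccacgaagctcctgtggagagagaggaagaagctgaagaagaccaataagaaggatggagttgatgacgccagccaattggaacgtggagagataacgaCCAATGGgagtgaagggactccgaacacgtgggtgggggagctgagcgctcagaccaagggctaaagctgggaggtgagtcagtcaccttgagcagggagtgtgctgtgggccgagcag
Atp5g2: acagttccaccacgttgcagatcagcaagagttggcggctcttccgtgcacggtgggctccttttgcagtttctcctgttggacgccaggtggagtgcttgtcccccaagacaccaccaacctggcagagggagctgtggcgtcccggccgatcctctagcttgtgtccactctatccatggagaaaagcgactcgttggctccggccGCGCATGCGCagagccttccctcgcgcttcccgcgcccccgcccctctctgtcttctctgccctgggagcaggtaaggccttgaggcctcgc
Atp5g3: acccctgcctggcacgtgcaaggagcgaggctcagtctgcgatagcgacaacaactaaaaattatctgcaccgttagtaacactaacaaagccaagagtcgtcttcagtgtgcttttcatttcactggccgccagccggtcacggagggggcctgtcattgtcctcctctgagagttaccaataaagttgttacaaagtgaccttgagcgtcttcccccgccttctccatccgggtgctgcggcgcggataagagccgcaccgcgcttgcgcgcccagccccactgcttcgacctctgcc
Ndufb6: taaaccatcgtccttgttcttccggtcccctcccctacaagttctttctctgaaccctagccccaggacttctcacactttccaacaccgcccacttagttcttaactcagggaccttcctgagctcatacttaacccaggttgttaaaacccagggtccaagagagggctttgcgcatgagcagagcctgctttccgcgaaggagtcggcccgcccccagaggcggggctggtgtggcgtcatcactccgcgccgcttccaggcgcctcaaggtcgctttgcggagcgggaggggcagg

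Strings known as binding motifs of factors that serve respiratory chain genes were searched on both strands. Of the 73 members 62 had a promoter listed, with 67 promoters, among 32851 promoters of the same length. The NRF1 string, spelled by the capitals in *Atp5g2* above and the same on either strand, was found in 6 member promoters (8.96%) and in 0.971% of all promoters. AAGATGGC, the YY1 string, was found in 10 (14.9%) and in 2.75% of all. CCATTGG, which reads CCAATGG on the opposite strand and so holds a CCAAT box, was found in 6 (8.96%) against 4.87%. CCGGAAGT, the string of the ETS factor GABPA, was found in 4 (5.97%) against 3.89%. The NRF1 string lay in the promoters of *Atp5g2*, *Atp5k*, *Ndufa11*, *Ndufaf4*, *Ndufaf5* and *Uqcrc1*, whose log2 fold changes ran from −0.17 (*Atp5k*) to 0.09 (*Ndufaf5*). *Ndufs6* held both the YY1 string and CCATTGG. A match describes these letters and is not a measured binding site.

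The F1 head and the stalks of ATP synthase lay closer to 0 than the c ring. *Atp5a1* and *Atp5b*, the α and β subunits that form the catalytic head, had log2 signals of 12.46 and 12.44 in WT AM against 12.39 and 12.36, and of 12.37 and 12.43 against 12.45 and 12.40. Their log2 fold changes were −0.08 and 0.02, and that of the central stalk gene *Atp5c1* was 0.0004 with an interval of −0.17 to 0.17. *Atp5e*, the ε subunit at the foot of the central stalk, had 8.99 and 9.07 against 8.81 and 8.85, a log2 fold change of −0.20 (limma adjusted p = 0.400). Over the 5 F1 genes the median was −0.076.

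*Atp5k*, the e subunit, which takes part in pairing ATP synthases in the membrane, had 8.80 and 8.85 in WT AM against 8.62 and 8.70, a log2 fold change of −0.17 (limma adjusted p = 0.469). The small membrane subunits *Atp5k*, *Atp5mpl*, *Atp5j2* and *Atp5l* had values of −0.17 to −0.072, while *Atp5md* was at −0.0009 with its other probe sets at 0.065 and 0.017, and the median over these 5 genes was −0.11. The 6 probe sets of *Atp5l*, the g subunit, ranged from −0.07 to −0.05 and were each lower on both *Trem-2*-/- arrays. Of the peripheral stalk, which holds the head still, *Atp5o* had 9.08 and 9.03 against 9.02 and 8.84. Its log2 fold change of −0.12 (limma adjusted p = 0.659) was −0.030 without *Trem-2*-/- replicate 2. *Atp5pb*, the b subunit, had 11.19 and 11.20 against 11.21 and 11.24, a log2 fold change of 0.03. Its dimmer probe set gave −0.095 and was lower on both *Trem-2*-/- arrays, so that no direction can be given for *Atp5pb*. The median over 4 stalk genes was −0.014. The ATP synthase genes not described so far ran from −0.09 (*Atp5d*) to −0.01 (*Atp5h*).

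**Figure D3:**
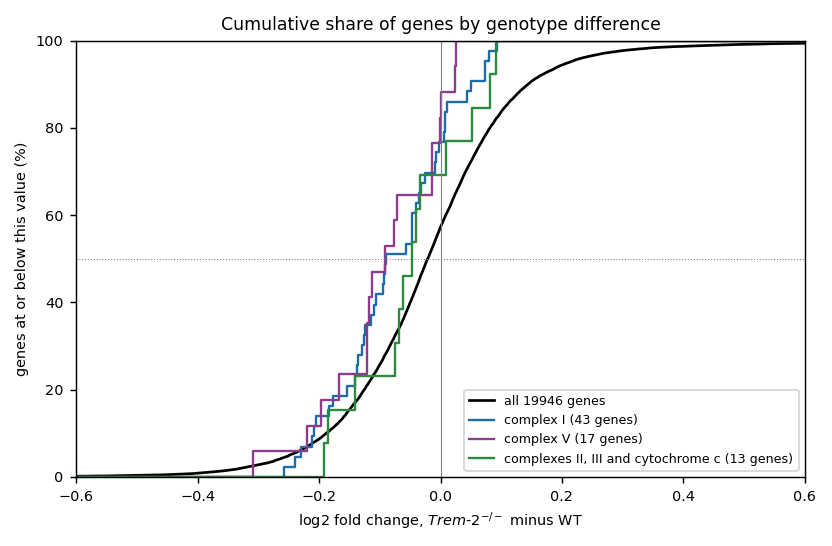
Cumulative share of genes (vertical axis, %) by log2 fold change (Trem-2-/- minus WT, horizontal axis) for complex I (43 genes), complex V (17), complexes II and III with cytochrome c (13) and all 19946 genes; 152 genes (0.762%) lie beyond the range drawn. The member curves run to the left of the curve of all genes around 0 and lack its long tails, since no member lies outside −0.31 to 0.093.

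Summarised per array, the mean log2 signal of the 73 members was 9.242 and 9.231 in WT AM and 9.168 and 9.155 in *Trem-2*-/- AM, 9.24 ± 0.0080 against 9.16 ± 0.0092 (SD, n = 2). Genes above the upper quartile of every array averaged 9.727 and 9.696 on the WT arrays and 9.708 and 9.720 on the *Trem-2*-/- arrays. Means over many genes thus also differed between arrays of 1 genotype, which the SD of the members does not show. For complex I the array means were 8.66 and 8.64 against 8.57 on either *Trem-2*-/- array, and for complex V 10.47 on either WT array against 10.39 and 10.37. For the c ring they were 9.88 and 9.85 against 9.66 and 9.63. Those of complex II were 9.90 and 9.95 against 9.88 and 9.79. Complex III genes gave 9.304 and 9.307 in WT AM against 9.303 and 9.264, so that *Trem-2*-/- replicate 1 lay by the WT arrays. The small offset between genotypes was thus present on both *Trem-2*-/- arrays for complexes I and V, while complex III differed by less than its *Trem-2*-/- arrays did from each other. Without *Trem-2*-/- replicate 2 the median log2 fold changes of complexes II, III and V moved to −0.027, −0.021 and −0.054, and that of complex III was −0.073 without replicate 1. Centring each array on its median reduced the median over all members to −0.056, with 50 of 73 below 0.

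**Figure D4:**
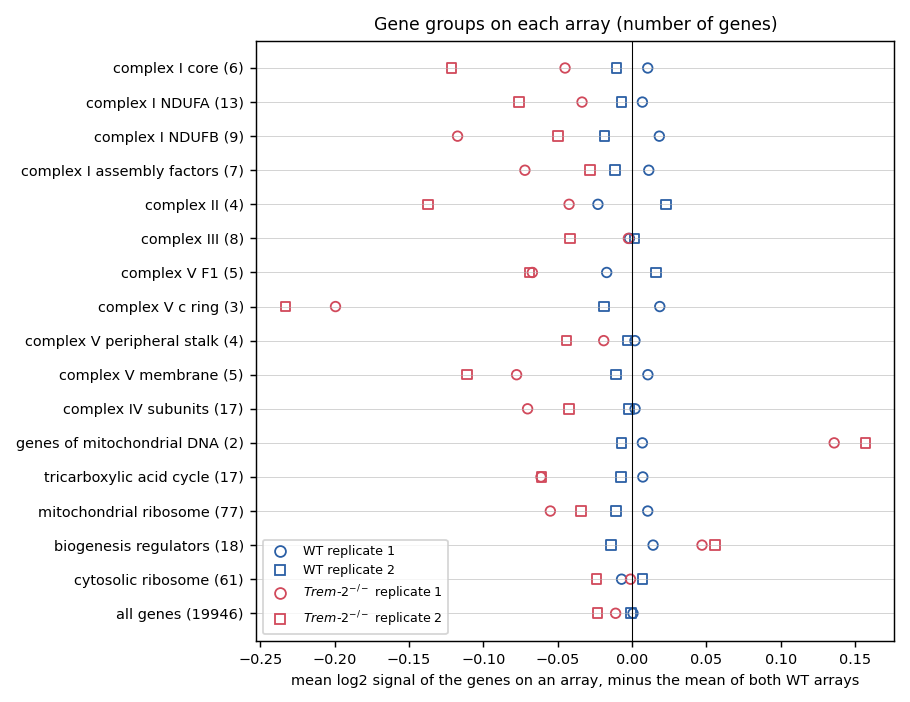
Mean log2 signal of each gene group on an array, minus the mean of both WT arrays (horizontal axis), for parts of the respiratory chain and for related gene lists, with the number of genes in parentheses; blue symbols are WT, red Trem-2-/-, circles replicate 1 and squares replicate 2. The c ring lies farthest to the left on both Trem-2-/- arrays, and the 2 genes of mitochondrial DNA and the biogenesis regulators lie to the right.

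Genes that work with these members were read from lists of their own, and 0 genes of any of these lists passed limma or SAM in either direction. At an unadjusted p below 0.05 there were 2 of 31 assembly factors (6.45%) and 1 of 17 tricarboxylic acid cycle genes (5.88%) lower, no more than the 6.9% of all genes. Higher were 1 of 2 genes of mitochondrial DNA and 1 of 18 biogenesis regulators (5.56%), beside 4.64% of all genes. Of 17 complex IV subunits 13 had values below 0, with a median of −0.10, 8 (47.1%, against 25.4% of all genes) were lower on both *Trem-2*-/- arrays and 1 (*Cox7a2l*, a factor of supercomplex assembly) higher. Of these 8 genes 4 are isoforms of restricted tissue distribution (*Cox4i2*, *Cox6a2*, *Cox8b* and *Cox8c*), and *Cox6a2*, an isoform of muscle, had the lowest value of the list, −0.18. Tricarboxylic acid cycle genes, which supply NADH and succinate, had a median of −0.051, with 15 of 17 below 0 and 10 (58.8%) lower on both *Trem-2*-/- arrays. The lowest was *Pcx*, pyruvate carboxylase, which refills the cycle, with 7.23 and 7.31 in WT AM against 6.97 and 7.01 (log2 fold change −0.28, limma adjusted p = 0.255). Carriers and uncoupling proteins had a median of −0.041, with 9 of 10 below 0. Assembly factors outside the naming rule had a median of −0.028, with 19 of 31 below 0. *Cyc1*, the cytochrome c1 of complex III, differed by −0.03.

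Subunits encoded in the mitochondrial genome lay on the other side. Only 2 such genes were measured, and both were higher on both *Trem-2*-/- arrays, as were 17.4% of all genes. *COX2*, here the mitochondrial subunit of complex IV and not the prostaglandin synthase, had log2 signals of 12.85 and 12.78 in WT AM against 12.98 and 13.05. Its log2 fold change was 0.20 (standard error 0.076, limma adjusted p = 0.398, or 0.0067 with an intensity trend and robust variance). *ND3*, of complex I, had 11.99 and 12.03 against 12.12 and 12.09, a log2 fold change of 0.09 (limma adjusted p = 0.692).

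Regulators of mitochondrial biogenesis had a median of 0.080, with 6 of 18 below 0. *Twnk*, the helicase that replicates mitochondrial DNA, had 7.03 and 6.99 in WT AM against 7.19 on either *Trem-2*-/- array, a log2 fold change of 0.19 (limma adjusted p = 0.401). *Tfam*, which packages and transcribes mitochondrial DNA, differed by 0.14 with overlapping arrays. *Nrf1* and *Gabpa*, the factors whose strings were searched above, differed by −0.07 and 0.0032, and *Yy1* by 0.10. *Ppard*, the nuclear receptor PPAR-δ that the study examined, differed by −0.01 (limma adjusted p = 0.967).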

How the data were processed

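RNA of AM from pooled mice was hybridized to 2 arrays per genotype. The authors deposited log2 values after RMA, which corrects the background, equalizes the arrays' distributions and summarizes each probe set, and which can compress small differences. The processing notes name RMA and mm9. Scanner intensities were not used here, so no detection call was at hand.

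Of 35557 probe sets, 21797 carried 1 symbol. For each of 19946 genes the probe set with the highest mean was kept, and probe sets naming several genes were left out. The annotation does not tell whether a kept probe set lies on the gene itself or on a processed pseudogene of it. This was not tested. All 73 members matched RefSeq (GRCm38.p6), used for names, chromosomes and promoters. Genotypes were compared with limma 3.58.1 in R 4.3.3 (lmFit, eBayes, two-sided, Benjamini-Hochberg over all genes, threshold 0.05), tested first on simulated data. The number of arrays limits the precision.

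Members and lists were chosen with earlier results of these data known. The genes named were the core subunits, complex II and *Cycs*, and the members of largest difference elsewhere (6 of complex I, 4 of complex III, 6 of complex V). Other names, and the *Atp5g2* promoter, were chosen after their values were seen. Alternatives were SAM, limma with an intensity trend and robust variance, quantile normalization, median centring, a replicate block, a mean log2 of at least 6, the mean of probe sets, all probe sets and leaving out each array.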

Additional observations from a re-analysis of the deposited data

How the results depend on the processing

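In every setting except one 0 respiratory chain genes and 0 genes of the other mitochondrial lists were called; an intensity trend with robust variance called 4 members lower, and 1 gene of the other lists higher (*COX2*) and 1 lower (*Nubpl*). With the replicate number as a block 0 members were called in either direction. Same-numbered arrays did not deviate together (r = −0.052), so the numbers were not taken to pair the arrays. The median over all members was −0.056 after centring and −0.081 to −0.056 leaving out 1 array. That of complex I was −0.079 after quantile normalization, −0.074 after centring and −0.088 to −0.072 leaving out 1 array. Leaving out 1 array it ranged from −0.14 to −0.027 for complex II, from −0.073 to −0.021 for complex III and from −0.097 to −0.054 for complex V, and was −0.075 for complex V after centring. The values nearest 0 for complexes II, III and V came without *Trem-2*-/- replicate 2. Members lower on both *Trem-2*-/- arrays numbered 27 after centring against 37. The share of all genes after centring was not counted, and the 25.4% given above is for values without centring. Of 324 values of 27 single genes, 310 kept direction and call, 4 newly passed and 10 turned. SAM, an intensity trend, a replicate block, a mean log2 of at least 6 and all probe sets leave the log2 fold change unchanged. The mean of probe sets does so for genes with 1 probe set. Direction could not turn in those settings, so the count of 310 does not measure stability. Of the values that turned, *Uqcr11* was −0.053 with the mean of its probe sets and *Ndufv2* 0.0079 after centring. *Cycs* kept its direction but moved to −0.23 with the mean of its probe sets. Leaving out 1 array the range was −0.25 to 0.058 for *Ndufs8*, −0.098 to 0.017 for *Ndufs1*, −0.041 to 0.025 for *Ndufv2*, −0.10 to 0.035 for *Sdhb* and −0.062 to 0.22 for *Uqcr11*. The cause of these changes was not tested.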

Other observations

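Mitochondrial ribosome genes, whose products translate the subunits of mitochondrial DNA, had a median log2 fold change of −0.051, with 59 of 77 below 0, 30 (39.0%) lower on both *Trem-2*-/- arrays and 7 (9.09%) higher, beside 25.4% and 17.4% of all genes. Cytosolic ribosome genes had a median of 0.0050, with 28 of 61 below 0, 12 (19.7%) lower on both arrays and 16 (26.2%) higher. No gene of either list passed limma, and at an unadjusted p below 0.05 there were 1 mitochondrial ribosome gene higher and 2 lower (2.60%), and 2 cytosolic ribosome genes lower (3.28%), below the 6.9% of all genes that were lower.

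Among assembly factors outside the naming rule, *Nubpl*, which delivers iron-sulfur clusters to complex I, had log2 signals of 5.94 and 5.95 in WT AM against 5.51 and 5.35 in *Trem-2*-/- AM. Its log2 fold change of −0.51 (limma adjusted p = 0.0862) was the lowest of the pathway lists and was chosen after its value was seen.

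The dim probe set of *Cycs* had log2 signals of 5.52 and 5.72 in WT AM against 4.91 and 5.25, a difference of −0.54, whereas the brightest gave −0.07. Probe sets left out because they name several genes gave −0.11 and −0.16 for *Ndufb4* with *Ndufb4b*, and 0.04 for *Ndufs5* with *Ndufs5-ps*.

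*Trem2* lies on chromosome 17. The 6 members on that chromosome had a median of −0.017, and the other 67 a median of −0.074. Of the 6 members 1 (*Ndufaf7*, 16.7%) was lower on both *Trem-2*-/- arrays, beside 25.4% of all genes.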
